A study of Mus musculus with 8 samples.

Results

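Medullary thymic epithelial cells (mTECs) with much CD80 on their surface were compared with mTECs with little CD80, both sorted from wild-type mice, across all genes measured on Illumina bead arrays. The members are the 2 arrays titled as Hipk2 wild type and CD80high and the 2 arrays titled as Hipk2 wild type and CD80low, which are 4 of the 8 arrays of the study. These mice were the wild-type controls of the matings. The other 4 arrays held CD80high and CD80low mTECs from mice whose Hipk2 gene, for a serine/threonine kinase, was knocked out in thymic epithelial cells (TECs). They entered here only to share the estimate of spread and to set the same comparison beside the wild-type one. The sources used here give neither the driver of the deletion nor the antibodies of the sort, nor the age and sex of the mice. Replicates are labelled biological, and whether a replicate came from 1 mouse or from a pool is not stated.

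The thymic medulla is where developing T cells are screened against the body's own proteins. Its epithelial cells mature from CD80low cells with little MHC class II into CD80high cells that carry much MHC class II and costimulatory molecules, under signals from the receptors RANK, CD40 and the lymphotoxin beta receptor that act through NF-kB. Many mature mTECs express Aire, a nuclear regulator that turns on many genes otherwise confined to peripheral organs, so that T cells meet insulin, casein or crystallins inside the thymus. CD80low mTECs are a mixture of progenitors, cells that make the chemokine CCL21, and cells past the Aire stage, among them thymic tuft cells and cells that resemble keratinocytes or muscle.

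Levels are given as normalised log2 intensities and differences as CD80high minus CD80low on that scale, so that 1 unit is a 2-fold difference. A gene was tested when its probe lay above the array background in both arrays of at least 1 of the 4 groups, and it was called at a Benjamini-Hochberg adjusted p under 0.05 in limma. In all, 13895 of the 20255 genes with a named probe were tested. Of these, 22.6% were called higher and 18.9% lower in wild-type CD80high cells, which is the background for counts over all tested genes of a list. It is not the background for counts among genes above background in all 4 arrays, nor for counts without CD80low replicate 1. In all, 10290 tested genes were above background in all 4 arrays. The shares of these called higher and lower were not computed, so counts among such genes stand without a background share. Of the 3146 genes called higher, 1839 were above background in both CD80low arrays. In the wild-type arrays 47.4% and 48% of probes lay above background in CD80low and 50.7% and 50.9% in CD80high cells. Replicates correlated at r = 0.974 in CD80low and 0.989 in CD80high cells across genes, and the SD of the difference between replicates was 0.478 and 0.298.

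CD80low replicate 1 stood apart from the other 3 wild-type arrays in genes of thymocytes and blood cells. Of the 20 listed thymocyte genes 17 had a probe and 14 were tested, and their mean level was 8.52 in that array, 6.72 in CD80low replicate 2, and 6.15 and 6.02 in the CD80high arrays. Summed on the linear scale, they stood at 14495 and 2284 in CD80low and 1593 and 1423 in CD80high arrays. Only 8 of the thymocyte genes were above background in all 4 arrays, 0 of them called. The T cell receptor subunit Cd3e, named after its values were seen, measured 11.31 and 7.44 in the CD80low arrays and 6.30 and 6.29 in the CD80high arrays, and 261 genes were more than 2-fold higher in CD80low replicate 1 than in replicate 2. Beta-globin Hbb-b1 (12.16 and 7.38 against 9.90 and 8.72) and the immunoglobulin mu chain Ighm (11.44 and 7.06 against 8.15 and 8.64), also named after their values were seen, were highest in that array as well. Of the thymocyte genes 2 were called lower in CD80high cells and 0 higher, and 1 without that array, while Cd3e, Hbb-b1 and Ighm were not called (limma adjusted p = 0.0621, 0.808 and 0.633). The part of these genes' cells in the results was not tested, and counts without CD80low replicate 1 are given where a list gained or lost at least 2 calls in a direction or its count moved by more than 1.5 times. Leaving out any 1 wild-type array lowered the number of called genes, and leaving out a CD80high array lowered it more. Whether a changed list count comes from the content of CD80low replicate 1 or from having 1 array fewer was not tested.

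Some genes of myeloid cells, B cells and erythroid cells were called higher in CD80high cells, and in sum the myeloid genes did not overlap between the groups, while the B cell and erythroid genes were highest in CD80low replicate 1. Of the 19 myeloid and dendritic cell genes, all with a probe, 13 were tested and 9 were called higher, 0 lower, with mean levels of 6.14 and 6.48 in CD80low and 8.02 and 8.06 in CD80high arrays. Their summed linear intensity ranged from 1476 to 1546 in CD80low and from 7821 to 8725 in CD80high arrays. Those called were led by the mannose receptor Mrc1 (3.77), the Fc receptor gamma chain Fcer1g (3.56) and the lysozyme Lyz2 (3.49). The dendritic cell markers Itgax, Clec9a, Xcr1 and Flt3 and the myeloid integrin Itgam were not above background in both arrays of any group. Of 12 B cell genes, 10 had a probe, 7 were tested and 5 were higher, among them the kinase Blk (2.66) and Cd79b (1.29), while Ms4a1, Pax5 and Cr2 were not above background in both arrays of any group. Summed, the B cell genes stood at 3352 and 572 in CD80low and 2213 and 1943 in CD80high arrays. Of 12 erythroid genes, 10 had a probe, 7 were tested and 4 were called higher. Only 2 erythroid genes were above background in all 4 arrays, 0 of them called, and 2 entered the test through the CD80high arrays in which they were high. Those called included the heme enzyme Alas2 (2.65) and the band 3 anion exchanger Slc4a1 (at least 6.64-fold higher), and the summed intensities of the list were 8842 and 535 in CD80low and 3268 and 2036 in CD80high arrays. Of the 14 fibroblast and mural genes, 13 were tested, 7 were lower and 1 higher, with summed intensities of 23994 and 28221 against 6637 and 6461. Of the 8 fibroblast and mural genes above background in all 4 arrays, 4 were lower and 0 higher. Of 9 tested endothelial genes of 12 listed, 2 were higher and 1 lower, with sums of 1336 to 1600 and 1424 to 1751. The part of these markers in the differences below was not tested.

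**Figure D1:**
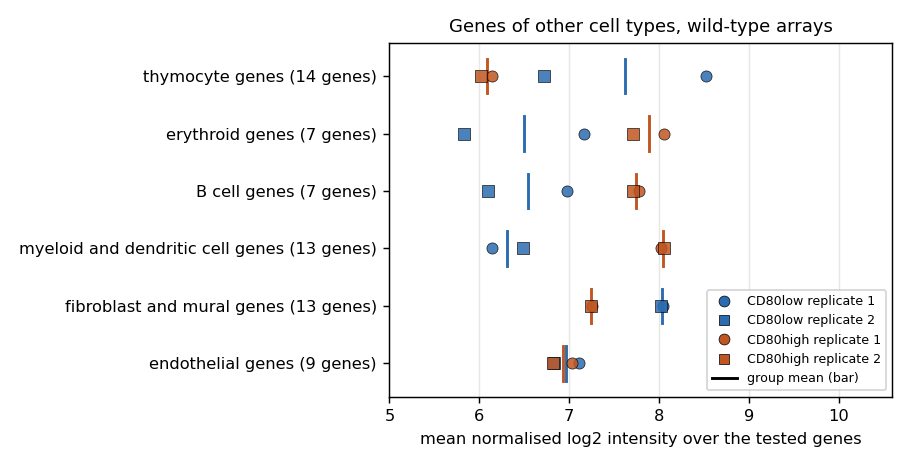
Mean normalised log2 intensity over the tested genes of 6 lists for cell types other than mTECs (x axis) in the 4 wild-type arrays, where circles are replicate 1, squares replicate 2 and bars the group means. Thymocyte genes reach 8.52 only in CD80low replicate 1, and myeloid genes lie at 8.02 and 8.06 in the CD80high arrays against 6.14 and 6.48 in the CD80low arrays.

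The markers of mTEC maturation followed the labels. Aire measured 8.08 and 8.41 in the CD80low arrays and 12.77 and 12.75 in the CD80high arrays. All 4 arrays were above background, the groups did not overlap, and the difference was 4.51 ± 0.21 (SE, limma adjusted p = 6.35e-07), or 22.9-fold. Other tested probes of Aire differed by 2.77 and 4.54. Cd80, the molecule used for the sort, measured 5.10 and 5.69 in the CD80low arrays and 10.04 and 10.38 in the CD80high arrays, a difference of 4.82 ± 0.33 (SE, limma adjusted p = 2.32e-06) that checks the labels and is no finding; only 1 CD80low array was above background. Its relative Cd86 was 17-fold higher (difference 4.09 ± 0.27, adjusted p = 1.85e-06). Krt5, the keratin of basal epithelium that marks the medulla, measured 11.51 and 11.92 in the CD80low arrays and 9.14 and 9.05 in the CD80high arrays and was 6.14-fold lower in CD80high cells (difference -2.62 ± 0.27, adjusted p = 3.00e-05). Hipk2 itself measured 10.15 and 10.87 in the CD80low arrays and 10.49 and 10.64 in the CD80high arrays, with overlapping groups and no call (0.06 ± 0.27, adjusted p = 0.885). In sorted bulk RNA a lower level can come from fewer cells that express the gene or from less RNA per cell, and these cannot be told apart.

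Aire belonged to a list of 10 regulators and partners of tissue antigen expression, of which 8 were tested. In it 3 were called higher and 1 lower, with a list median of 0.17 that was -0.04 without CD80low replicate 1 and 0.58 without CD80low replicate 2. Fezf2, a transcription factor that controls tissue genes apart from Aire, measured 11.88 and 12.07 in the CD80low arrays and 13.80 and 14.01 in the CD80high arrays. It was already abundant in CD80low cells and was 3.8-fold higher in CD80high cells (1.93 ± 0.24, adjusted p = 0.000107). Sirt1, the deacetylase that acts on AIRE protein, was 4.15-fold higher (2.05 ± 0.21, adjusted p = 3.58e-05). The topoisomerase Top1 was lower by little, -0.56 ± 0.20, adjusted p = 0.0483, a call that was lost when any 1 of the 4 wild-type arrays was left out.

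**Figure D2:**
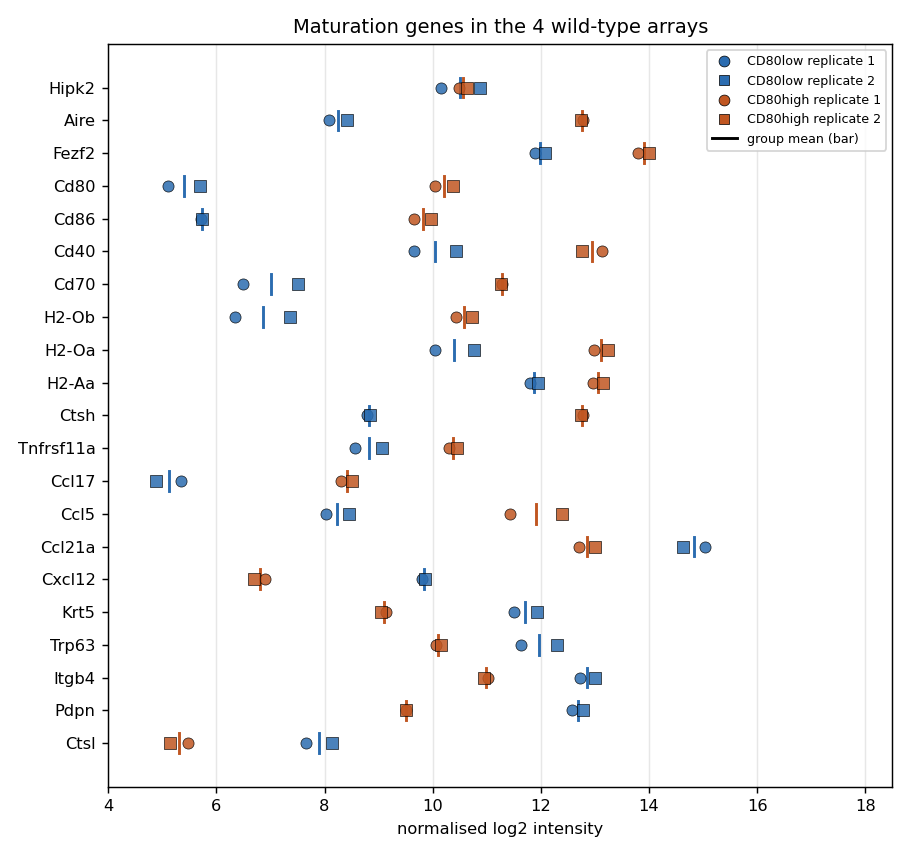
Normalised log2 intensity (x axis) of 21 maturation genes in the 4 wild-type arrays, with CD80low in blue, CD80high in orange, circles for replicate 1, squares for replicate 2 and bars for group means. Aire lies at 8.08 and 8.41 in CD80low and 12.77 and 12.75 in CD80high arrays, Ccl21a and Krt5 lie lower in CD80high cells, and Hipk2 overlaps.

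Across the genome, CD80high and CD80low cells differed at 5769 of 13895 tested genes (41.5%). CD80high cells had 3146 genes higher (22.6%) and 2623 lower (18.9%), and the median difference over all tested genes was -0.01. Without adjustment, 6947 genes had p under 0.05. Large rises outnumbered large falls: 357 called genes were higher by at least 3 log2 units and 67 were lower by as much, and 113 against 10 passed 4 units. With 2 arrays against 2, 36.4% of tested genes had both CD80high arrays above both CD80low arrays and 36.2% had both below. Probes of 1225 genes were above background in both CD80high arrays and in no CD80low array, and 854 of these were called higher. The reverse held for 274 genes, of which 140 were called lower. A gene that entered the test only through 1 subset was picked for being high there, which favours a difference. Counts among genes above background in all 4 arrays are therefore given beside the counts of tissue lists and of other lists in which at least 2 genes entered in that way. Leaving out CD80low replicate 1 gave 2625 genes higher and 2221 lower. For Apoc3, Ccl20, Csn3, Lta, Nppa and Npy, whose folds are given below, 1 of the 2 CD80low arrays was above background.

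**Figure D3:**
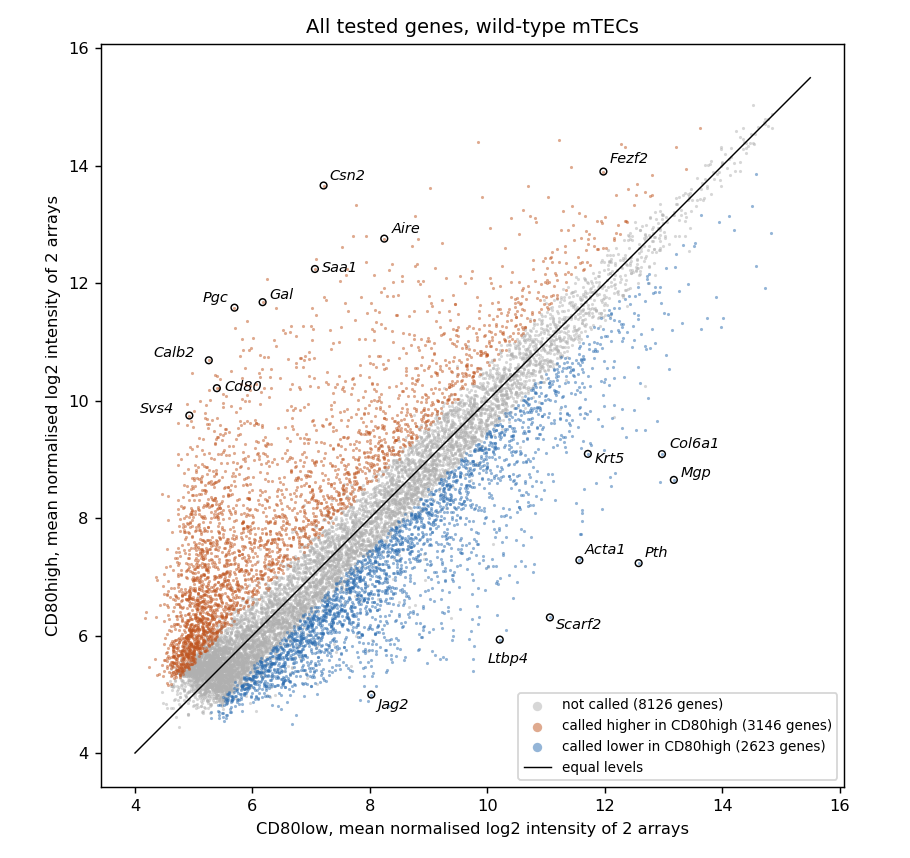
Mean normalised log2 intensity of each of the 13895 tested genes in wild-type CD80low cells (x axis) and CD80high cells (y axis), 2 arrays each, with genes called higher in orange, called lower in blue and not called in grey; the line marks equal levels. Csn2, Pgc and Gal lie far above the line from low levels in CD80low cells, and Pth, Mgp and Scarf2 lie far below it.

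The largest rises were genes of secretory organs, the gut, skin and nerves. Beta-casein Csn2, a milk protein, measured 6.49 and 7.93 in the CD80low arrays and 13.71 and 13.62 in the CD80high arrays. Its CD80low arrays lay apart from each other but well below both CD80high arrays, and the difference was 6.45 ± 0.49 (SE, limma adjusted p = 4.39e-06), or 87.6-fold. Progastricsin Pgc, the precursor of a stomach protease, measured 5.42 and 5.97 in the CD80low arrays and 11.65 and 11.51 in the CD80high arrays (59.3-fold, 5.89 ± 0.29, adjusted p = 6.46e-07). The intestinal apolipoprotein Apoa4 was 46.6-fold higher, the neuropeptide galanin Gal 45.4-fold, the gut hormone peptide YY Pyy 43.6-fold and Calca, which encodes calcitonin and the neuropeptide CGRP, 34.3-fold. Other tested probes of Apoa4 differed by less, 4.12 and 4.68 against 5.54 for the probe used. Others of the 15 were Fabp9, a fatty acid binding protein of sperm cells (5.82), Vmo1 (5.57), the enamel and prostate protease Klk4 (5.51), the neuronal calcium-binding protein calretinin Calb2 (5.43), the serpin Serpinb12 (5.32), the isoprenoid enzyme Idi2 (5.23), the acute-phase proteins Saa1 (5.18) and Saa3 (5.10), and histidine ammonia lyase Hal (5.18). All 15 stayed higher without CD80low replicate 1, where the smallest of them was Saa3 at 4.16. In that array these genes were lower than in CD80low replicate 2, for example 6.59 and 8.46 against 12.33 and 12.91 for Saa3.

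Promoter sequence was looked up for these genes in RefSeq (build GRCm38.p6), where 13 of the 15 had an entry of 250 bases before to 50 bases after the gene's start. The letters TATAAA, searched on both strands, stood in 4 of the 13. They stood in 5 of 13 promoters of the 15 largest falls and in 14.2% of all 27025 promoters in the table. Among tested genes with an entry the share was 9.64%. These 13 and 13 promoters belong to genes picked by rank, and their counts were not tested against the other shares. A comparison of base composition or motifs between all called genes and other genes is void and not reported. Only 78.7% of the genes called higher and 79.5% of those called lower had an entry, short of the 80% set for such a check. The 120 bases before the start of 4 of the largest rises are shown, the 4 with the largest difference that had an entry, with TATAAA in capitals. They are Csn2 (chr5:87699426-87699545, minus strand), Pgc (chr17:47726722-47726841, plus strand), Vmo1 (chr11:70514617-70514736, minus strand) and Apoa4 (chr9:46240724-46240843, plus strand).
Csn2: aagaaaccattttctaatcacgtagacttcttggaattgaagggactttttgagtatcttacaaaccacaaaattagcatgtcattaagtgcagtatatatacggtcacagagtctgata
Pgc: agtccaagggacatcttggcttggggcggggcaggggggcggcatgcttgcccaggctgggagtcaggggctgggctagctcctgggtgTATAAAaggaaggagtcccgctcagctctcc
Vmo1: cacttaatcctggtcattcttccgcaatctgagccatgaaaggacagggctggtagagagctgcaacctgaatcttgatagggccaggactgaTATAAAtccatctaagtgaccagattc
Apoa4: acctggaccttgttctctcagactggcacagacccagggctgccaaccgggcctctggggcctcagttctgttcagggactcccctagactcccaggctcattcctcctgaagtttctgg
The motif began 31 bases before the start in Pgc and 27 bases before it in Vmo1, and it was absent from these stretches of Csn2 and Apoa4.

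The largest falls were a hormone, extracellular matrix and muscle genes. Parathyroid hormone Pth, which the thymus expresses beside the parathyroid, measured 13.19 and 11.97 in the CD80low arrays and 7.23 and 7.24 in the CD80high arrays, a difference of -5.34 ± 0.37 (SE, limma adjusted p = 2.76e-06), or 40.6-fold. Matrix Gla protein Mgp, an inhibitor of calcification, measured 13.11 and 13.25 in the CD80low arrays and 8.82 and 8.48 in the CD80high arrays (23-fold lower, -4.53 ± 0.21, adjusted p = 6.35e-07), and the scavenger receptor Scarf2 was 27-fold lower. Both CD80low arrays lay above both CD80high arrays for each of these genes. Skeletal muscle made up 2 of the 15, the fast myosin light chain Myl1 (-4.33) and skeletal actin Acta1 (-4.28). Matrix and contractile genes were the latent TGF-beta binding protein Ltbp4 (-4.28), collagen VI chains Col6a2 (-4.22) and Col6a1 (-3.88), the proteoglycan Prelp (-3.85), the smooth muscle myosin light chain Myl9 (-3.96) and caveolin Cav1 (-3.82). Chromogranin A Chga of neuroendocrine granules (-3.87), Frmd6 (-4.27) and the sulfotransferase Sult5a1 (-4.15) completed them with the immunoglobulin segment Igkv1-110. That segment measured 10.98 and 8.51 in the CD80low arrays and 4.995 and 5.79 in the CD80high arrays, highest in CD80low replicate 1, and its call (-4.35 ± 1.42, adjusted p = 0.0317) was lost without that array.

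CD80high cells had more RNA of most listed MHC class II genes, while most tested class I genes were not called. The share of class I genes called higher was near the 22.6% over all tested genes. All 10 listed MHC class II genes were tested and above background in all 4 arrays, and 7 were higher and 0 lower, with a median difference of 1.00 against -0.01 over all tested genes. The class II genes with the largest differences were the subunits of H2-O, which restrains peptide loading by H2-M. H2-Ob measured 6.35 and 7.36 in the CD80low arrays and 10.44 and 10.72 in the CD80high arrays (13.2-fold, 3.72 ± 0.30, adjusted p = 6.04e-06) and H2-Oa was 6.52-fold higher (2.71 ± 0.29, adjusted p = 4.13e-05). The classical chains H2-Aa (1.18) and H2-Eb1 (1.02) and the H2-M chains H2-DMb1 (0.98) and H2-DMb2 (1.26), all of them already abundant in CD80low cells, differed by less. These counts held without CD80low replicate 1. Of 12 tested class I genes (14 listed), 3 were higher, the proteasome parts Psme2 (1.16), Psmb10 (0.96) and Psme1 (0.66), and 1 was lower, the peptide transporter subunit Tap1 (-0.94); without CD80low replicate 1, 5 were higher.

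Proteases that cut antigen in endosomes changed in both directions. Of 11 cathepsins and relatives, all tested, 6 were higher and 1 lower. Ctsh measured 8.79 and 8.84 in the CD80low arrays and 12.78 and 12.74 in the CD80high arrays (15.4-fold higher, 3.94 ± 0.22, adjusted p = 1.07e-06). The thiol reductase Ifi30 (2.34), Ctsz (2.19), Ctse (1.43) and Ctss (1.41), the class II protease of medullary and dendritic cells, were higher too. Ctsl, the counterpart of Ctss in the cortical epithelium, measured 7.65 and 8.14 in the CD80low arrays and 5.47 and 5.15 in the CD80high arrays and was 6-fold lower (-2.58 ± 0.28, adjusted p = 4.88e-05). Its 2 groups did not overlap, and Ctsl was above background in 1 of the 2 CD80high arrays.

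Among costimulatory and checkpoint ligands, 13 of 14 were tested, 9 were higher and 1 lower. Cd80, the molecule of the sort, is 1 of the 9 higher and is no finding, which leaves 8 of the other 12. Of the 9 above background in all 4 arrays, 7 were higher and 1 lower. The CD27 ligand Cd70 measured 6.50 and 7.51 in the CD80low arrays and 11.28 and 11.27 in the CD80high arrays (19.3-fold, 4.27 ± 0.40, adjusted p = 1.85e-05). Cd40, receptor for help from T cells, was 7.48-fold higher, the 4-1BB ligand Tnfsf9 8.11-fold and the ICOS ligand Icosl 3.15-fold. The exception was Cd274, which encodes PD-L1 and was named after its values were seen: it measured 12.59 and 12.89 in the CD80low arrays and 11.74 and 12.28 in the CD80high arrays, a difference of -0.73 ± 0.24, adjusted p = 0.0345.

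The chemokines split between the subsets. All 13 listed genes with a probe were tested, 8 were higher and 3 lower in CD80high cells, and of the 9 above background in all 4 arrays 4 were higher and 3 lower. Ccl21a, which draws positively selected thymocytes into the medulla, measured 15.03 and 14.63 in the CD80low arrays and 12.70 and 13.001 in the CD80high arrays; it remained abundant in CD80high cells but was 3.94-fold lower (-1.98 ± 0.23, adjusted p = 7.34e-05). Cxcl12, which guides progenitors and cortical thymocytes, was 8.17-fold lower (-3.03 ± 0.30, adjusted p = 2.40e-05). In the other direction, Ccl5 measured 8.02 and 8.45 in the CD80low arrays and 11.44 and 12.39 in the CD80high arrays (12.8-fold), and Ccl20, which attracts cells with CCR6, was 13-fold higher. Xcl1, which attracts dendritic cells with XCR1, and the CCR4 ligand Ccl17 were not above background in either CD80low array and were at least 9.6-fold and at least 8.37-fold higher. The third fall was the fractalkine gene Cx3cl1 (-1.50, named after its values were seen).

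Genes of immature mTECs and progenitors were mostly lower in CD80high cells. Of 15 tested genes of 18 listed, 9 were lower and 3 higher, with a median of -1.18. The mucin-type protein podoplanin Pdpn measured 12.57 and 12.78 in the CD80low arrays and 9.50 and 9.51 in the CD80high arrays (9.02-fold lower, -3.17 ± 0.18, adjusted p = 1.12e-06). The FGF receptor Fgfr2, which TEC progenitors need for growth, was 9.49-fold lower, the hemidesmosome integrin Itgb4 3.66-fold and the stem cell factor of stratified epithelia Trp63 3.64-fold. The 3 that were higher were claudin genes Cldn3 (1.21) and Cldn4 (1.15) and the keratin Krt15 (1.08), the last 2 named after their values were seen. Of 11 tested cortical TEC genes of 13 listed, 5 were lower and 3 higher, or 4 and 3 of the 8 above background in all 4 arrays. The lower ones included Pltp (-2.56), Il7 (-1.69), the survival cytokine of thymocytes, and the thymus-specific protease Prss16 (-1.66), and Tbata (1.30) was higher. Of 12 tested general epithelial genes of 13 listed, 4 were lower, the keratins Krt18 (-0.62) and Krt19 (-0.81), E-cadherin Cdh1 (-0.65) and Grhl2 (-1.54), and 2 were higher, Cldn7 (1.34) and Foxn1 (0.85), the master regulator of TECs.

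Genes of the specialised cell types that mTECs imitate went in different directions. Thymic tuft cell genes were lower in CD80high cells: 17 of 19 listed genes were tested, all above background in all 4 arrays, 15 were lower and 0 higher, and the median was -2.24. The taste G protein Gnat3 measured 10.49 and 9.71 in the CD80low arrays and 6.98 and 7.38 in the CD80high arrays (7.58-fold lower, -2.92 ± 0.27, adjusted p = 1.53e-05). The adaptor Sh2d6 was 9.39-fold lower, the G protein subunit Gnb3 7.23-fold, the phospholipase Plcb2 5.45-fold, the actin-binding Avil 5.3-fold and the kinase Dclk1 4.71-fold. Tuft genes were higher in CD80low replicate 1 (mean 9.93) than in replicate 2 (9.28), against 7.71 and 7.54 in CD80high arrays, and 14 were lower without replicate 1.

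Genes of cornifying keratinocytes ran the other way. Of 24 listed, 22 were tested, 17 were higher and 1 lower, or 14 and 1 of the 16 above background in all 4 arrays, and the median was 1.94. The cornified envelope precursor Sprr1b measured 5.93 and 7.12 in the CD80low arrays and 11.08 and 11.33 in the CD80high arrays (25.7-fold, 4.68 ± 0.51, adjusted p = 4.69e-05), and involucrin Ivl, the suprabasal keratin Krt10 and the kallikrein Klk7 were 5.28-fold, 4.91-fold and 6.43-fold higher. The exception was the transglutaminase Tgm1 (-1.24, named after its values were seen). Of 10 microfold-type genes, all tested, 6 were higher and 0 lower, led by the chemokine Ccl9 (4.08), which measured 7.46 and 7.69 against 11.54 and 11.77, CD80low against CD80high, and by Ccl20. The ETS factor Spib, which microfold cells need, differed by 1.01. Aif1 (1.95) and Ccl6, of this list, are also expressed by the myeloid cells whose genes were higher in CD80high cells.

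Skeletal muscle genes were called in both directions. Of 21 listed skeletal muscle genes, 19 were tested, 10 were lower and 5 higher, or 9 and 3 of the 15 above background in all 4 arrays. The lower ones included Myl1 and Acta1, above, the fast light chain Mylpf (-2.44), fast troponin C Tnnc2 (-2.92), cardiac actin Actc1 (-2.27) and the muscle regulator myogenin Myog, which measured 7.54 and 7.63 in the CD80low arrays and 5.63 and 5.35 in the CD80high arrays (-2.10 ± 0.19, adjusted p = 1.34e-05). Another tested probe of Actc1 differed by less, -0.70. The 5 that were higher, named after their values were seen, were embryonic and perinatal myosin heavy chains Myh3 (3.30) and Myh8 (1.79), the fetal acetylcholine receptor subunit Chrna1 (0.97), titin Ttn (0.90) and slow troponin Tnni1 (at least 1.49-fold higher, from below background in both CD80low arrays); without CD80low replicate 1, 3 were called. Of 13 tested neuroendocrine genes of 16 listed, 3 were lower, the granins Chga, Scg2 (-1.02) and Chgb (-0.91), and 3 were higher, among them the transcription factor Insm1 (6.84-fold, 2.77 ± 0.23, adjusted p = 7.27e-06); of the 9 above background in all 4 arrays, 2 were higher and 3 lower. The shares of the 13 called higher and lower were near those over all tested genes. Of 12 tested ciliated-cell genes, 1 was higher (Dnaic1, 0.98; 2 without CD80low replicate 1) and 1 lower (Dnah11, -0.75).

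The RANK, CD40 and lymphotoxin axis was higher in CD80high cells at the level of ligands, of RANK itself and of its decoy. All but 1 of the 10 listed genes were tested, 6 were higher and 2 lower, and the median was 1.55. Tnf measured 6.19 and 6.13 in the CD80low arrays and 10.31 and 10.77 in the CD80high arrays (20.8-fold, 4.38 ± 0.27, adjusted p = 1.48e-06), and lymphotoxin Lta was 6.66-fold higher. The receptor RANK, Tnfrsf11a, was 2.94-fold higher (1.55 ± 0.27, adjusted p = 0.00104). Osteoprotegerin Tnfrsf11b, the soluble decoy that binds RANK ligand, measured 8.02 and 8.12 in the CD80low arrays and 12.11 and 12.16 in the CD80high arrays and was 16.7-fold higher (4.06 ± 0.23, adjusted p = 1.02e-06). The lower ones were the TNF receptor Tnfrsf1a (-1.11) and the lymphotoxin beta receptor Ltbr (-1.06, named after its values were seen).

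Downstream of these receptors, TRAF adaptors and NF-kB members moved in both directions. Of 9 tested adaptors and partners of 10 listed, 4 were higher and 2 lower. Traf1, itself an NF-kB target, measured 8.25 and 8.11 in the CD80low arrays and 11.14 and 11.48 in the CD80high arrays (8.77-fold, 3.13 ± 0.20, adjusted p = 1.59e-06), and Traf6, which RANK and CD40 signal through, was 3-fold higher. Traf5 was lower (-0.85). Of 15 tested NF-kB subunits and regulators of 16 listed, 7 were higher and 4 lower, with a median of 0.52. The subunits Rel (1.39) and Relb (0.94) and the inhibitors Nfkbia (1.44), Nfkbie (1.34) and Tnip1 (1.13) were higher. The 4 that were lower were the atypical inhibitors Nfkbiz (-0.99) and Bcl3 (-0.88), the deubiquitinase Tnfaip3 (-0.72) and the subunit Rela (-0.53), the last 3 named after their values were seen. Without CD80low replicate 1, 5 NF-kB genes were called higher and 2 lower.

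CD80high cells had more RNA of some survival genes of the Bcl2 family and less of Bcl2 itself. Of 14 tested members of 16 listed, 6 were higher and 1 lower. The NF-kB-induced survival gene Bcl2a1d measured 8.71 and 8.73 in the CD80low arrays and 12.40 and 12.88 in the CD80high arrays (15.1-fold, 3.92 ± 0.22, adjusted p = 1.05e-06), its near copy Bcl2a1b, whose transcripts its probe may not tell apart, was 11.5-fold higher and Bcl2l1, which encodes BCL-XL, 3.58-fold. Bcl2 itself measured 7.78 and 7.96 in the CD80low arrays and 5.89 and 6.12 in the CD80high arrays and was 3.65-fold lower (-1.87 ± 0.19, adjusted p = 3.47e-05). The proapoptotic p53 targets Pmaip1 (2.36) and Bbc3 (1.29) were higher. Of 17 tested p53 targets of 20 listed, 8 were higher, among them Mdm2 (2.89-fold, 1.53 ± 0.20, adjusted p = 0.000167) and Zmat3 (1.20), and 2 were lower, Plk2 (-1.60) and Sesn1 (-1.35); without CD80low replicate 1, 6 were higher and 2 lower.

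Most called genes of growth factor and morphogen pathways were lower in CD80high cells. In the TGF-beta and BMP pathway 21 of 24 listed genes were tested, 13 were lower and 2 higher (1 without CD80low replicate 1), with a median of -1.15. The receptor Tgfbr2 measured 10.46 and 10.41 in the CD80low arrays and 6.40 and 6.89 in the CD80high arrays (13.8-fold lower, -3.79 ± 0.27, adjusted p = 3.37e-06). The ligands Bmp4 (-2.29) and Tgfb3 (-1.68) and the activin inhibitor follistatin Fst (-3.61) were lower, and so were the target genes Id1 (-3.59) and Id2 (-3.39). In the Notch pathway 14 of 16 were tested, 7 were lower and 2 higher, or 5 and 2 of the 9 above background in all 4 arrays. The ligand Jag2 was not above background in either CD80high array and was at least 6.73-fold lower, the ligand Dll1 differed by -1.65, the receptor Notch3 by -2.37 and the targets Hey1 and Hes6 by -2.41 and -1.33, while the receptor Notch4 was higher (0.99). In the Wnt pathway 19 of 21 were tested, 9 were lower and 1 higher. Wnt4, a ligand that acts in thymus development, was 3.73-fold lower, the receptor Fzd2 at least 2.49-fold lower and the DKK receptors Kremen2 and Kremen1 4.13-fold and 2.61-fold lower.

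Of 15 tested FGF, EGF and IGF genes of 20 listed, 8 were lower and 4 higher (2 without CD80low replicate 1). Of the 10 above background in all 4 arrays, 8 were lower and 2 higher, and 2 genes entered only through the CD80high arrays. The IGF-binding proteins Igfbp4 (-3.80), Igfbp5 (-2.72) and Igfbp3 (-2.05) were lower with the receptors Fgfr2 and Egfr (-2.21). The ligand Igf1 went against them: it measured 6.14 and 7.33 in the CD80low arrays and 10.96 and 11.25 in the CD80high arrays and was 20.7-fold higher (4.37 ± 0.35, adjusted p = 6.32e-06). Among 20 tested cytokine signalling genes of 21 listed, 5 were higher and 5 lower, near the shares over all tested genes. The receptors of the interleukin-6 family Lifr (12.9-fold, -3.69 ± 0.31, adjusted p = 8.74e-06) and Osmr (6.63-fold) and the feedback inhibitor Socs3 (-2.41) were lower. The interleukin-1 antagonist Il1rn (13.5-fold), Il23a (6.87-fold) and Il15 (3.2-fold), a cytokine for natural killer and CD8 T cells, were higher.

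All called interferon-stimulated and immediate-early genes were lower in CD80high cells. Of 18 tested interferon-stimulated genes of 22 listed, all above background in all 4 arrays, 11 were lower and 0 higher, with a median of -0.96. Ifit3 measured 12.76 and 13.001 in the CD80low arrays and 9.61 and 9.71 in the CD80high arrays (9.34-fold lower, -3.22 ± 0.19, adjusted p = 1.12e-06), and Mx2, Gbp2 and Isg15 were 9.59-fold, 6.5-fold and 3.78-fold lower. The signal transducer Stat2 differed by -2.44. Of 19 tested immediate-early genes of 21 listed, 13 were lower and 0 higher, with a median of -1.05. The ERK phosphatase Dusp6 was 5.3-fold lower, the stress factor Atf3 3.98-fold, Fosb 2.69-fold and Klf2 4.58-fold.

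**Figure D4:**
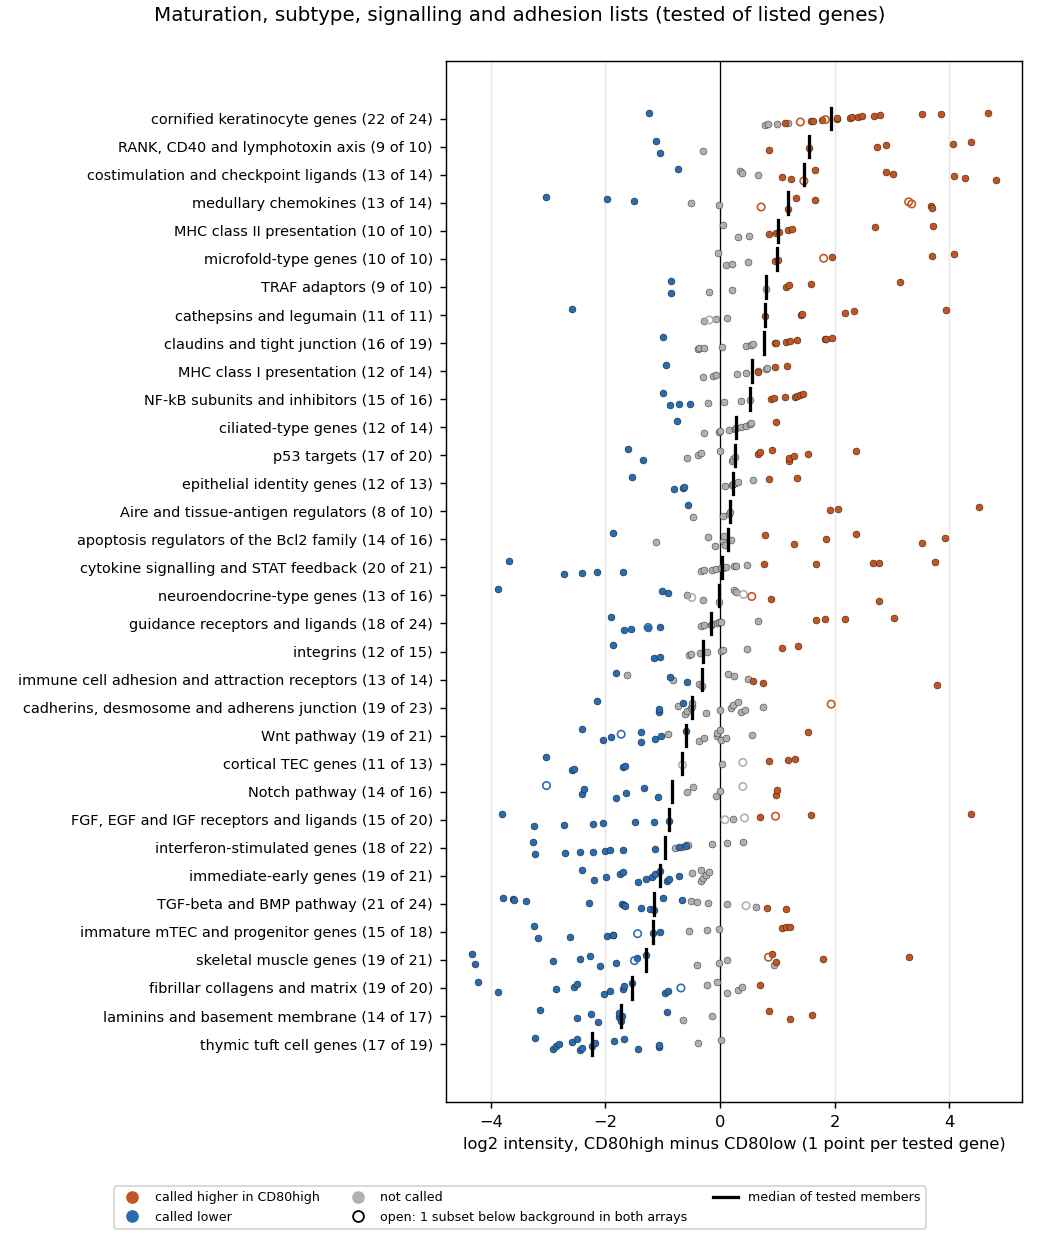
Difference in log2 intensity, CD80high minus CD80low (x axis), for each tested gene of the maturation, subtype, signalling and adhesion lists (y axis, with tested and listed genes in brackets); orange and blue points were called higher and lower, grey points were not called, open points had 1 subset below background in both arrays and black bars are medians. Cornified keratinocyte genes have a median of 1.94 and thymic tuft cell genes one of -2.24.

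CD80high cells had less matrix and basement membrane RNA and more of several claudins. Of 14 tested laminins and other basement membrane genes of 17 listed, 9 were lower and 3 higher, with a median of -1.73. The laminin chain Lamb3, part of the laminin that anchors epithelia, measured 11.63 and 11.66 in the CD80low arrays and 8.40 and 8.58 in the CD80high arrays (8.88-fold lower, -3.15 ± 0.20, adjusted p = 1.62e-06). Agrin Agrn (4.79-fold), the collagen IV chain Col4a2 (5.63-fold) and Lama5 (3.4-fold) were lower as well. Of 19 tested fibrillar collagen and matrix genes of 20 listed, 13 were lower and 1 higher (0 without CD80low replicate 1), the lower ones among them the gelatinase Mmp2 (7.29-fold), its inhibitor Timp2 (5.64-fold) and decorin Dcn (5.87-fold). Fibroblasts express these genes too, and the fibroblast list, which shares Dcn, Lum, Col3a1 and others with this one, had 7 of its 13 tested genes lower in the same arrays. The integrins, which follow, were called in shares near those over all tested genes. Of 12 tested integrins of 15 listed, 3 were lower, Itgb4, its partner Itga6 (-1.04) and Itga5 (-1.16), and 2 were higher, Itgb6 (1.37) and Itgb8 (1.09); without CD80low replicate 1, 5 were lower and 1 higher.

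Of 16 tested claudin and tight junction genes of 19 listed, 8 were higher and 1 lower (2 without CD80low replicate 1), with a median of 0.77. Cldn2, a claudin of leaky epithelia, measured 5.66 and 5.77 in the CD80low arrays and 7.44 and 7.87 in the CD80high arrays (1.95 ± 0.22, adjusted p = 5.64e-05), Cldn23 and the scaffold Tjp3 were 3.62-fold and 3.56-fold higher, and Cldn12 was lower (-0.999). Of 19 tested cadherin and desmosome genes of 23 listed, 4 were lower, P-cadherin Cdh3 (-2.14), Dsc3 (-1.07), Jup (-1.07) and Cdh1, and 1 was higher, Cdh16, which was not above background in either CD80low array (at least 3.52-fold higher). Of 13 tested genes for the adhesion of immune cells, 3 were higher and 3 lower, near the shares over all tested genes. The addressin Madcam1, known from gut vessels as the ligand of a lymphocyte homing integrin, measured 5.40 and 4.88 in the CD80low arrays and 8.93 and 8.92 in the CD80high arrays (13.8-fold higher, 3.79 ± 0.23, adjusted p = 1.41e-06); 1 CD80low array was above background. Vcam1 (0.75) and Icam1 (0.58) were higher by less, and the 3 adhesion genes that were lower were Bcam (-1.82), Cd44 (-0.87) and Cd24a (-0.58); without CD80low replicate 1, 1 was higher and 2 lower. Among 18 tested guidance genes of 24 listed, 4 were higher, led by Sema7a (8.17-fold, 3.03 ± 0.19, adjusted p = 1.55e-06), and 6 were lower, among them the receptors Epha1 (-1.91) and Nrp1 (-1.67). The share of guidance genes called higher was near that over all tested genes.

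Few genes of central carbon metabolism were called. Of 13 tested glycolysis genes of 18 listed, 11 were not called, the glucose transporter Slc2a1 was lower (-0.95 ± 0.18, adjusted p = 0.00206) and the phosphofructokinase Pfkm higher (0.67), with a median of -0.03. Of 20 tested citrate cycle genes of 23 listed, 15 were not called, 3 were higher, led by Suclg1 (1.01), and 2 were lower (1 without CD80low replicate 1), Idh2 (-0.85) and Pdha1 (-0.59). Of 27 tested respiratory chain genes of 32 listed, 23 were not called and 4 were higher, Atp5pb (1.07), Cycs (0.73), Cox4i1 (0.68) and Ndufv2 (0.57). In simulated data 33% of 100 genes shifted by 1 log2 unit were called. Few genes were shifted there, so the adjustment was stricter than here, where 41.5% of tested genes were called. The 33% therefore does not give the share that would be called here. Genes not called were not shown to be equal between the subsets.

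Lipid and redox genes were called in both directions. Of 18 tested genes of fatty acid synthesis and storage (22 listed), 6 were higher and 3 lower. Dgat2, which makes triglycerides, measured 7.06 and 7.67 in the CD80low arrays and 10.82 and 11.15 in the CD80high arrays (12.3-fold higher, 3.62 ± 0.28, adjusted p = 4.91e-06), while the desaturase Fads1 was 3.25-fold lower. Of 17 tested fatty acid oxidation genes of 20 listed, 5 were higher and 5 lower (2 and 3 without CD80low replicate 1); the mitochondrial carnitine enzyme Cpt2 was 4.25-fold higher and the thiolase Acaa2 3.01-fold lower. All 18 cholesterol genes with a probe (24 listed) were tested, 5 were higher, led by Mvd (1.35) and Cyp51 (1.21), and 0 were lower; without CD80low replicate 1, 7 were higher. In serine and one-carbon metabolism, where 15 of 20 were tested, 4 were higher and 3 lower (5 without CD80low replicate 1). With all arrays, the shares of these 15 called higher and lower were near those over all tested genes. Consecutive steps of serine synthesis went opposite ways: Phgdh measured 8.28 and 7.90 in the CD80low arrays and 9.58 and 9.57 in the CD80high arrays (1.48 ± 0.22, adjusted p = 0.000425) and Psat1 10.26 and 10.11 against 8.78 and 8.59 in the same order (-1.50 ± 0.22, adjusted p = 0.000329). Of 18 tested glutathione and oxidative defence genes of 21 listed, 7 were higher, among them Gstm1 (1.66) and Gpx1 (1.21), and 2 were lower, among them Gpx3 (-1.26); without CD80low replicate 1, 5 were higher and 1 lower.

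Some chaperones of the secretory pathway were higher in CD80high cells. All 17 listed genes of the unfolded protein response and ER folding were tested, 6 were higher, 0 lower and 11 not called, with a median of 0.45. Sdf2l1 measured 7.10 and 7.000 in the CD80low arrays and 8.94 and 8.96 in the CD80high arrays (3.72-fold, 1.90 ± 0.18, adjusted p = 2.01e-05), and Creld2 and the chaperone BiP, Hspa5, were 3.34-fold and 3.08-fold higher. Of 24 tested cell cycle genes of 28 listed, 5 were higher and 5 lower, shares close to those over all tested genes. The mitotic kinase Cdk1 (1.79) was higher, and the D-type cyclin Ccnd3 (-1.01) and the replication licensing factor Mcm6 (-0.83) were lower; without CD80low replicate 1, 3 were higher and 2 lower. Of 21 tested chromatin regulators of 24 listed, 9 were lower, among them Hdac7 (-1.81), Chd7 (-1.89) and Hdac4 (-1.60), and 2 were higher. Dnmt3l, a germline cofactor of DNA methylation, measured 6.14 and 6.60 in the CD80low arrays and 11.17 and 10.91 in the CD80high arrays (25.4-fold higher, 4.67 ± 0.27, adjusted p = 1.12e-06), and Hdac9 differed by 1.52.

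In every organ list that follows, more genes were called higher in CD80high cells than lower. The skeletal muscle list, given above, went the other way with 5 higher and 10 lower. Of 21 tested pancreas genes of 26 listed, 19 were higher and 0 lower (17 and 0 without CD80low replicate 1), and of the 11 above background in all 4 arrays 10 were higher. Insulin Ins2 measured 5.67 and 5.40 in the CD80low arrays and 8.53 and 8.53 in the CD80high arrays (7.98-fold, 2.997 ± 0.22, adjusted p = 3.74e-06), glucagon Gcg 5.78 and 6.41 against 9.62 and 9.58 in the same order (11.4-fold), and the regenerating protein Reg1 was 23.1-fold higher. Of 19 tested intestine genes of 24 listed, 17 were higher and 1 lower, or 12 and 1 of the 13 above background in all 4 arrays. The homeobox factor of the gut Cdx1 measured 7.20 and 6.89 in the CD80low arrays and 10.81 and 10.66 in the CD80high arrays (12.9-fold, 3.68 ± 0.19, adjusted p = 8.75e-07), the antimicrobial lectin Reg3b was 23.3-fold higher and the guanylate cyclase ligands Guca2b and Guca2a 8.78-fold and 8.07-fold. Of 13 tested stomach genes of 15 listed, 12 were higher and 0 lower, but 4 of 5 above background in all 4 arrays were higher and 7 of the 13 were below background in both CD80low arrays, among them the gastrokine Gkn1 (at least 8.16-fold higher), the mucin Muc5ac (at least 8.63-fold) and gastric lipase Lipf (at least 6.49-fold). With such genes set to their bound, the stomach median was 2.70 instead of 3.18.

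The liver, mammary, salivary and lung lists included 3 genes called lower. Of 22 tested liver genes of 29 listed, 19 were higher and 1 lower, or 12 and 1 of the 15 above background in all 4 arrays; hepcidin Hamp, the iron hormone, measured 7.47 and 6.70 in the CD80low arrays and 11.42 and 11.50 in the CD80high arrays (20.8-fold, 4.38 ± 0.26, adjusted p = 1.18e-06), and the apolipoproteins Apoa1 and Apoc3 were 23.4-fold and 30.6-fold higher. Of 9 tested mammary genes of 11 listed, 6 were higher and 0 lower, and 3 were above background in all 4 arrays, 1 of them higher; whey acidic protein Wap was below background in both CD80low arrays and at least 13.5-fold higher, and casein Csn3 was 10.4-fold higher. Of 13 tested genes of salivary, lacrimal and odorant-binding secretions (20 listed), 9 were higher and 1 lower (2 without CD80low replicate 1), or 3 and 1 of the 5 above background in all 4 arrays, and the lipocalin Obp2a measured 5.42 and 5.57 in the CD80low arrays and 10.24 and 9.69 in the CD80high arrays (22.2-fold). Probes for close copies such as Dcpp1 and Dcpp2, Reg3a and Reg3b or Saa1 and Saa3 may read each other's transcripts, so their values are not independent. Of 12 tested lung genes of 14 listed, 8 were higher and 1 lower (0 without CD80low replicate 1), or 4 and 1 of the 7 above background in all 4 arrays, led by the club cell protein Scgb1a1 (16.2-fold, 4.01 ± 0.20, adjusted p = 7.43e-07).

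Neural, sensory and endocrine genes were higher too, with Pth as an exception. Of 16 tested brain and nerve genes of 24 listed, 13 were higher and 0 lower, and of the 8 above background in all 4 arrays 7 were higher. Gad1, which makes the transmitter GABA and is an autoantigen in diabetes, measured 6.48 and 5.88 in the CD80low arrays and 9.41 and 9.24 in the CD80high arrays (8.83-fold, 3.14 ± 0.23, adjusted p = 4.04e-06). Neuropeptide Y, Npy, was 20.7-fold higher and oxytocin Oxt 5.34-fold, and vasopressin Avp and Pomc, below background in both CD80low arrays, were at least 5.77-fold and at least 6.66-fold higher. Of 12 tested retina and lens genes of 18 listed, 10 were higher and 0 lower, but 7 were below background in 1 subset and 3 above it in all 4 arrays, 2 of these higher; the crystallin Cryba1 was at least 4.65-fold higher, and with bounds the median was 0.81 instead of 1.08. Of 10 tested placenta and pituitary genes of 15 listed, 8 were higher and 1 lower; 2 were above background in all 4 arrays, 1 higher and 1 lower, and growth hormone Gh was at least 6.19-fold higher. Of 7 tested thyroid and parathyroid genes of 12 listed, 4 were higher and 1 lower, or 2 and 1 of the 3 above background in all 4 arrays: Pth fell in the subset where Calca and Trh (at least 7.85-fold) were higher.

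Among testis, kidney and male accessory gland genes all calls were in 1 direction. Of 13 tested testis genes of 21 listed, 5 were higher and 0 lower, among them the lactate dehydrogenase of sperm Ldhc (at least 6.35-fold higher) and protamine Prm1 (2.39), and 8 were not called; 3 were above background in all 4 arrays, 1 of them higher. Of 10 tested kidney genes of 17 listed, 6 were higher and 0 lower, led by the transporter Slc12a1 (1.97), and 4 were above background in all 4 arrays, 1 of them higher. Of 8 tested genes of accessory glands (16 listed), 5 were higher and 0 lower, 2 were above background in all 4 arrays, 1 of them higher, and the seminal vesicle protein Svs4 measured 5.11 and 4.74 in the CD80low arrays and 9.87 and 9.63 in the CD80high arrays; it was above background in neither CD80low array and was at least 21.2-fold higher (4.82 ± 0.23, adjusted p = 6.35e-07). Of 12 tested genes of heart and smooth muscle (15 listed), 7 were higher, led by atrial natriuretic peptide Nppa (29.5-fold), and 2 were lower, the smooth muscle genes Tagln (at least 8.32-fold lower) and Acta2 (5.07-fold lower). Of the 5 above background in all 4 arrays, 3 were higher and 1 lower, and 2 genes entered only through each subset. Of 22 tested S100 and antimicrobial genes of 23 listed, 14 were higher and 2 lower (1 without CD80low replicate 1), or 9 and 2 of the 16 above background in all 4 arrays; the lysozyme Lyz1 measured 11.26 and 11.17 against 14.35 and 14.52 (9.33-fold), and the calgranulins S100a8 (3.56) and S100a9 (2.78), which neutrophils also express, were higher.

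Genes listed as Aire-dependent and genes listed as Aire-independent were called in the same direction, with some genes in both lists. All 19 tested genes of the 30 listed as Aire-dependent were higher, 11 of them above background in all 4 arrays and 5 in no CD80low array, with a median of 3.64 (3.56 with bounds); without CD80low replicate 1, 18 were called. Of the 11 tested genes of the 13 listed as Aire-independent, 8 were higher and 0 lower, or 7 of the 9 above background in all 4 arrays, with a median of 2.59. Both lists hold Csn2 and Fabp9, so they are not exclusive. The counts and medians of each list include these shared genes, and Csn2 had the largest difference in each. The granule protein Prg2, of the first list, measured 7.50 and 7.69 in the CD80low arrays and 12.18 and 12.10 in the CD80high arrays (23.3-fold), and Resp18, of the second list, 8.74 and 8.39 against 10.86 and 11.45 (6.04-fold).

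**Figure D5:**
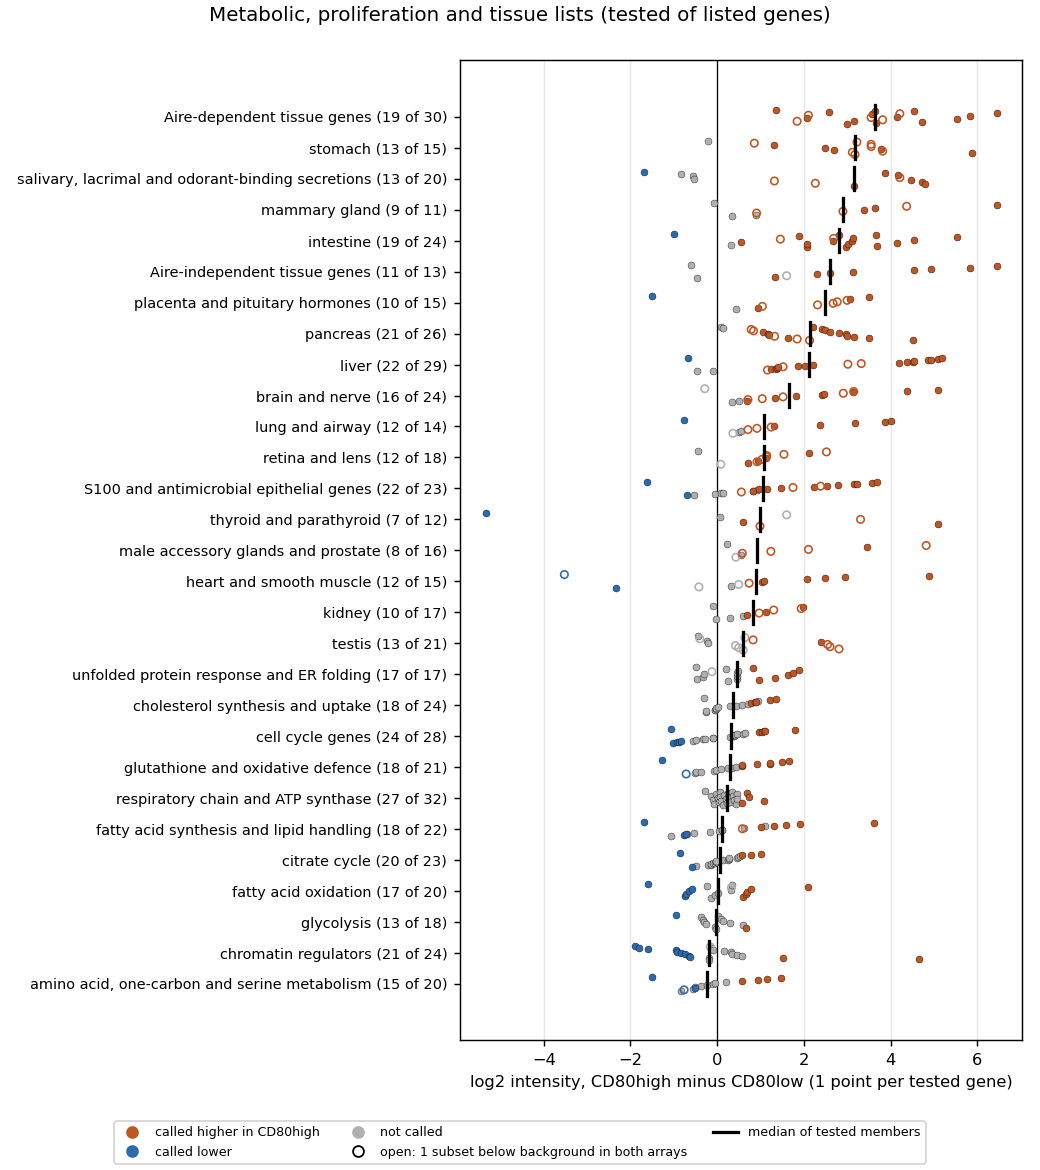
Difference in log2 intensity, CD80high minus CD80low (x axis), for each tested gene of the metabolic, proliferation and tissue lists (y axis, with tested and listed genes in brackets), drawn as in the plot of maturation lists. Medians of the tissue lists drawn here lie between 0.60 for testis (0.34 with genes below background at their bound) and 3.64 for Aire-dependent genes (3.56), and that of glycolysis genes at -0.03. Skeletal muscle genes are in the plot of maturation lists.

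The same comparison in knockout mTECs, which uses other arrays, called 3089 genes higher (22.2%) and 2570 lower (18.5%). Of the genes higher in wild-type CD80high cells 83.6% were also higher in the knockout, which was 85.1% of the knockout's own, and 2630 genes were in both; of the lower genes 2044 were in both, 77.9% and 79.5%, and 1 gene was called in opposite directions. Both fits share the estimate of spread, and the deviations of same-numbered arrays from their group means correlated across genes between the genotypes, at 0.511 in CD80low and 0.468 in CD80high cells. Differences lay close together for the leading genes: 4.51 in wild type and 4.60 in knockout for Aire, 6.45 and 6.39 for Csn2, -5.34 and -4.91 for Pth. They lay further apart for the tuft genes, with -3.23 and -1.60 for Sh2d6, -2.24 and -0.79 for Dclk1, and list medians of -2.24 and -1.10. Tested gene by gene, limma called 0 genes for a difference between the genotypes (465 at an unadjusted p under 0.05), so none of these differences passed.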

How the data were processed

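RNA of sorted mTECs was measured on Illumina bead arrays, per the labels' protocols. The authors deposited linear intensities, already scaled between arrays; software and normalisation are not given in the sources used here. A second table with 16 columns that no label ties to a sample was not used. Of 46089 probes 35667 had 1 gene symbol and 10422 none; RefSeq gene tables updated 28519 names by gene ID, 2634 by accession and 4458 by symbol. The deposited intensities were corrected (normexp, offset 16), quantile normalised and set to log2 (limma 3.58.1, R 4.3.3). A probe was above background past an array's mode plus 1.645 SD of the values below it. Each gene was represented by the tested probe that was brightest on average across the 8 arrays; for 15 genes other probes were called in opposite directions. A limma model with 4 group means over 8 arrays was fitted, 2-sided, with Benjamini-Hochberg adjustment. With 2 arrays against 2, an exact permutation test of 1 gene cannot go below p = 0.333, and p-values measure only the spread between these samples. "At least" folds compare with the lowest signal above background. The number of arrays limits the precision: in simulated data on 13895 genes 33% of 100 genes shifted by 1 log2 unit and 89% of 100 shifted by -2 were called, with 4 false calls. No other genes were shifted there, so the adjustment was stricter than in the data and these shares do not carry over to it.

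The genes named are Hipk2, Aire, Cd80, Cd86, Krt5, Ins2, Gad1 and Fezf2, the 15 largest called rises and falls without overlap, and up to 6 called genes with the smallest p in each of 69 lists; others are marked. The lists held 1174 genes, of which 1096 were on the array and 957 were tested. The comparison, the lists and their members were chosen with earlier results of these data known. Alternatives covered normalisation, background, filter, probe summary, variance prior, array weights, the replicate number as a block and each array left out.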

Additional observations from a re-analysis of the deposited data

How the results depend on the processing

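The main counts were 3146 genes higher and 2623 lower. They were 3089 and 2424 with the deposited values on the log2 scale, 2932 and 2611 without background correction, 3312 and 2295 with median centring, 2942 and 2407 with no filter, and 3098 and 2555 in the 4 wild-type arrays alone. The share of higher calls ranged from 52.9% to 59.1%. Leaving out 1 wild-type array gave 2302 to 2908 higher and 1713 to 2221 lower genes; the lowest count of lower genes, 1713, came without CD80high replicate 2. The array left alone in its group is then assumed to vary like the others. At a difference of at least 1 log2 unit 2089 genes were higher and 1360 lower.

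The replicate block gave 3428 higher and 3020 lower genes; the deviations of same-numbered arrays correlated at 0.0955 between the wild-type subsets, at 0.511 between the genotypes in CD80low and at 0.468 in CD80high cells, and nothing in the labels ties the numbers to a shared animal or day. A block within each subset, added after seeing the data, gave 3551 and 2976 with 1 gene differing between genotypes. Leaving out CD80low replicate 1 of both genotypes, added likewise, gave 2940 and 2514 with 3 such genes; all other alternatives that could test this gave 0.

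The named genes were recomputed under these alternatives: 4713 values kept direction and side of the threshold, 149 lost the call, 8 gained it and 9 changed sign, all 9 in genes not called in the main setting. Leaving out 1 wild-type array, Hipk2 ranged from -0.30 to 0.42, Hbb-b1 from -2.85 to 1.93 and Ighm from -3.04 to 1.34; Hipk2 was also -0.20 with the mean of probes. List medians ranged from -0.113 to 0.362 for epithelial identity genes, from -0.295 to 0.0549 for immune cell adhesion, from -0.645 to 0.0396 for endothelial genes and from -0.0532 to 0.0719 for glycolysis. Without CD80low replicate 1 of both genotypes the values were -0.30 for Hipk2, 1.93 for Hbb-b1, 1.34 for Ighm, -0.113 for epithelial identity, 0.0549 for immune cell adhesion and 0.0396 for endothelial genes. Hbb-b1 and Ighm were called higher in that fit (limma adjusted p = 0.00843 and 0.00228) and called lower with the block within subset (-1.94 and -3.03, adjusted p = 0.00334 and 2.60e-05), so their direction depends on the setting. The median of Aire and its partners was -0.04 without CD80low replicate 1. The glycolysis median was 0.00563 with median centring, 0.00934 with the mean of probes and 0.0527 with the block within subset. The calls of Cd24a, Top1, Tnni1, Rela and Igkv1-110 were lost most often. The causes were not tested. Signal over background limits the low genes: differences against a subset at background are lower bounds.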
